A study of Mus musculus with 36 samples.

Results

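Metallothioneins and antioxidant genes were followed as 10 genes, out of 12626 genes tested on the array: Mt1, Mt2, Hmox1, Nqo1, Gclc, Gclm, Txnrd1, Gpx3, Sod2 and Mgst1. They were chosen by name, and each was read by its brightest probe set by mean over all 36 arrays. The 10 genes had 19 probe sets in all. All 10 brightest probe sets passed the filter on low values, which kept the upper 60% of probe sets by mean log2 value.

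Metallothioneins are small cysteine-rich proteins that bind zinc and copper, and their genes are switched on by the metal-sensing factor MTF1 at metal response elements and by stress hormones and cytokines. Hmox1 (heme oxygenase), Nqo1 (a quinone reductase), Gclc and Gclm (the catalytic and modifier subunits of the enzyme that starts glutathione synthesis) and Txnrd1 (cytosolic thioredoxin reductase) are targets of NRF2, a factor that binds antioxidant response elements when oxidants or electrophiles disable its inhibitor KEAP1. Gpx3 is a secreted glutathione peroxidase, Sod2 is the superoxide dismutase of mitochondria, and Mgst1 is a membrane-bound glutathione transferase that also reduces lipid peroxides. Heart muscle, rich in mitochondria, uses these enzymes to clear superoxide and peroxides.

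The left ventricle of adult mice on a C57 black background was profiled on Affymetrix whole-genome mouse arrays. HRas-v12, an active Ras protein, MKK3bE, an active kinase upstream of p38, and MKK7D, an active kinase upstream of JNK, were each carried as a floxed transgene behind the alpha myosin heavy chain promoter, which is active in heart muscle cells. The same promoter drove Mer-Cre-Mer, a Cre that tamoxifen activates, and the controls were littermates without transgenes. Every mouse, controls included, was given 20 mg/kg tamoxifen on 3 successive days from 12 weeks of age, so the drug is common to all groups. Early hearts were taken 4 to 7 days and late hearts 2 to 4 weeks after the first dose.

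The HRas-v12 line was read early on 2 arrays of females and 3 of males, and late on 3 of each sex. MKK3bE had 2 female early arrays, 2 female late arrays and 3 male late arrays. MKK7D had 3 transgenic female arrays at each time, set against 3 control females of its own at each time. The other lines shared 3 control females and 3 control males, whose labels give no time. The comparisons of HRas-v12 and of MKK3bE with control therefore rest on the same control arrays and are not independent of each other. The labels do not tell whether arrays come from different animals. The p-values therefore weigh changes against the spread between arrays, which may be technical, and the number of arrays limits the precision.

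Levels are signals on a linear scale, on which every array had a mean of 2500 after 2% of probe sets were left off each end. Changes are differences in log2(signal + 32), averaged over the sexes where both were measured, so changes of dim genes come out too small. A gene was called at an adjusted p under 0.05 in limma, adjusted over all genes tested. Probe sets differ in brightness for technical reasons, so levels are compared between arrays and never between genes.

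Ventricular muscle genes were bright on every array, with Myl2 at 100406 to 235318, Myh6 at 119266 to 246366 and Tnni3 at 66854 to 202633. Signals of 6 arrays went against their labels. Esr1, the gene of the receptor whose parts make up Mer, read 688 in HRas-v12 female early replicate 3, and 2915 and 1327 in HRas-v12 male late replicates 1 and 3. It read 12437 to 155949 on the other transgenic arrays, against 294 to 7943 on the shared control arrays. Among the MKK7D controls, Esr1 read 106402 and 91291 in late replicates 8 and 9, and early replicate 1 had a Y-linked Eif2s3y signal of 6018 although labelled female. The calls without these 6 arrays are given beside the counts of members. Leaving them out leaves 1 array each of early HRas-v12 females, late HRas-v12 males and late MKK7D controls. Tests of those groups then rest on the spread of the other groups.

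The members varied to very different degrees over the 36 arrays. The highest array stood 33.8 times above the lowest for Hmox1, 18.7 times for Mt2, 7.70 times for Mgst1, 5.72 times for Mt1 and 5.40 times for Gpx3. Nqo1, Gclm, Gclc, Sod2 and Txnrd1 spanned 4.24, 3.82, 3.26, 2.62 and 2.48 times. The most variable members were thus the heme-degrading enzyme and a metallothionein, and the steadiest was thioredoxin reductase.

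**Figure D1:**
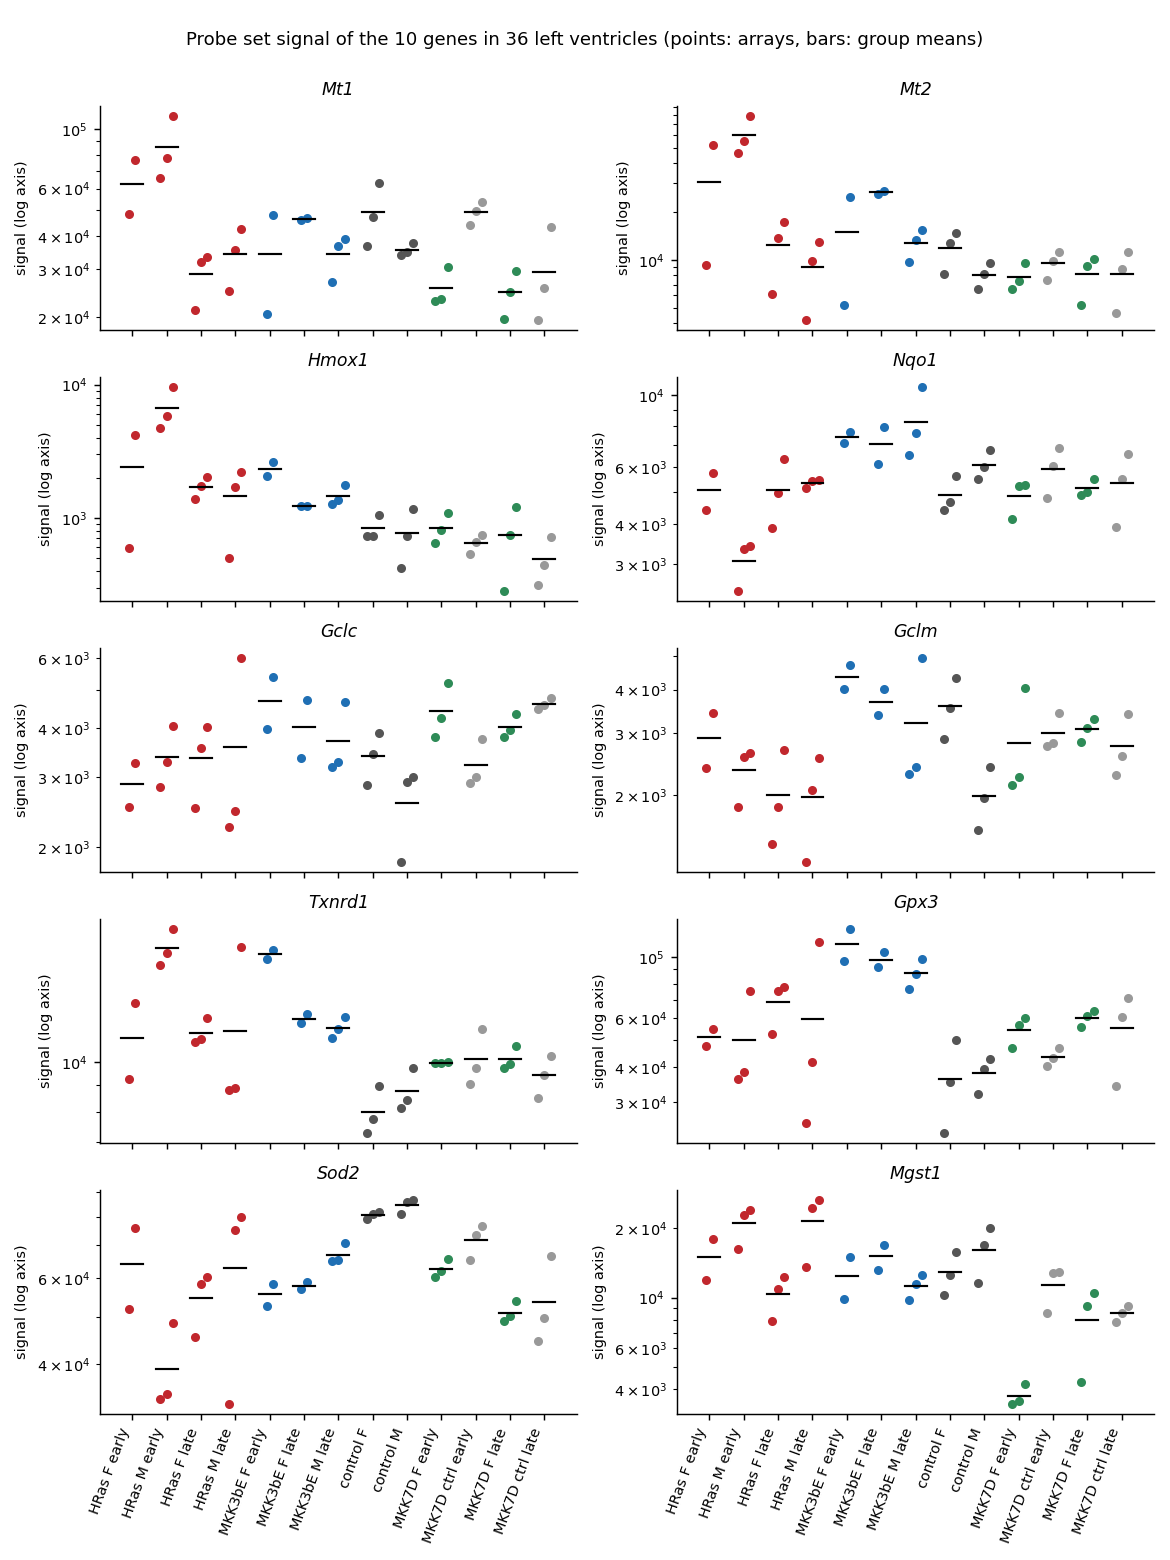
Signal of each of the 10 genes (log axis, one panel per gene) on every array, in 13 groups with transgenic groups left of their controls; each point is 1 array and each bar a group mean. Mt2 and Hmox1 stand high in 4 of the 5 early HRas-v12 arrays, Gpx3 in all MKK3bE arrays, and Mgst1 is low in early MKK7D transgenic arrays.

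In early HRas-v12 hearts 6 of the 10 members were called against the shared controls, 4 higher (Mt1, Mt2, Hmox1 and Txnrd1) and 2 lower (Nqo1 and Sod2). Of all genes tested, 33.8% were called in that comparison, 15.1% higher and 18.7% lower. In late HRas-v12 hearts 2 members were called, Txnrd1 higher and Sod2 lower, where 9.52% of all genes were, 4.86% higher and 4.66% lower. Leaving out the 6 arrays that go against their labels kept all 6 early calls and neither of the late ones. The share of members called lay above the share of all genes at both times. Both late calls, and the early ones of Mt1 and Nqo1, were lost without some single arrays.

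In early MKK3bE hearts 2 members were called, Txnrd1 and Gpx3, both higher, against 6.26% of all genes, 3.48% higher and 2.78% lower. In late MKK3bE hearts 3 were called, Nqo1, Txnrd1 and Gpx3, all higher, against 10.4% of all genes, 5.06% higher and 5.39% lower. These calls were kept without the 6 arrays in doubt, and 5 members were then called at each time, with Hmox1, Nqo1 and Sod2 added early and Mt2 and Sod2 late. In early MKK7D hearts 1 member was called, Mgst1, lower, where 17 genes or 0.135% of all were called, 0.0871% higher and 0.0475% lower. Mgst1 kept its call without the 6 arrays (adjusted p = 0.0206). Of those 6 only MKK7D control early replicate 1 is in this comparison, and the others enter through the pooled spread. Without that array alone the call was lost (log2 change -1.48, adjusted p = 0.133). In late MKK7D hearts no member was called, where limma called 0% of all genes, and 643 genes but no member had an unadjusted p under 0.05.

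The median log2 change of the 10 members was 0.38 in early HRas-v12 hearts, where that of all genes was -0.04, and 0.02 in late HRas-v12 hearts, where that of all genes was 0.02. It was 0.37 early and 0.42 late in MKK3bE hearts, beside -0.02 and -0.01 for all genes. In MKK7D hearts it was -0.17 early and 0.01 late, beside 0.00 and 0.02 for all genes. Members moved in both directions in HRas-v12 hearts, so a median describes them poorly there.

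**Figure D2:**
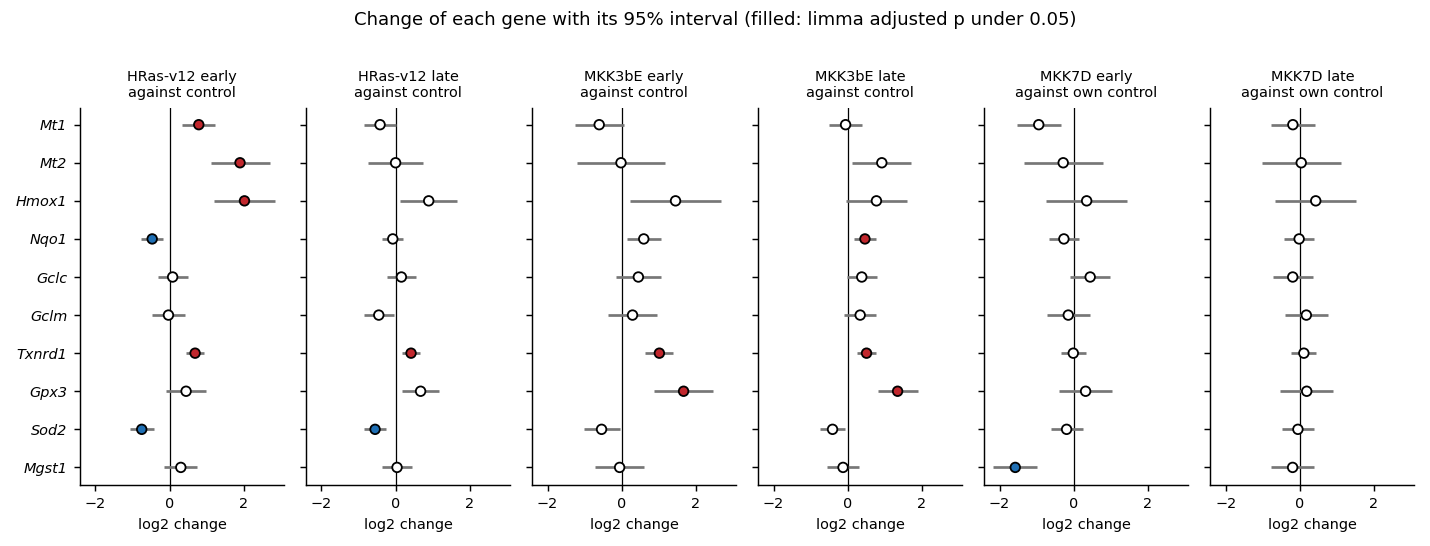
Log2 change against control, on the log2(signal + 32) scale with its 95% interval from limma, for the 10 genes in 6 comparisons; filled points were called at an adjusted p under 0.05. Txnrd1 is filled and higher in both HRas-v12 and both MKK3bE comparisons, and Sod2 is filled and lower in the HRas-v12 ones.

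Mt1 and Mt2, the metallothioneins found in most tissues, lie side by side on chromosome 8. Their promoters are shown because both genes moved together in HRas-v12 hearts, and because MTF1 acts through short elements there. The windows run from 250 bases before to 50 after the RefSeq gene start on the plus strand of GRCm38.p6, at chr8:94178839-94179138 for Mt1 and chr8:94172368-94172667 for Mt2. Capitals mark the core of the metal response element, TGCACNC or TGCGCNC, and in Mt2 also the core of the antioxidant response element, TGACNNNGC, on either strand.
Mt1 promoter: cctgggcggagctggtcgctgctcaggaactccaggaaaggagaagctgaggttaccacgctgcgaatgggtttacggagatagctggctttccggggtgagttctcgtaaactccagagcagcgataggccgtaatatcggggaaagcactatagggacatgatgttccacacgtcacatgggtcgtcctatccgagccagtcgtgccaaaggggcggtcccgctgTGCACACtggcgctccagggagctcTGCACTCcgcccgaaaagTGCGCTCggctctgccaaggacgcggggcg
Mt2 promoter: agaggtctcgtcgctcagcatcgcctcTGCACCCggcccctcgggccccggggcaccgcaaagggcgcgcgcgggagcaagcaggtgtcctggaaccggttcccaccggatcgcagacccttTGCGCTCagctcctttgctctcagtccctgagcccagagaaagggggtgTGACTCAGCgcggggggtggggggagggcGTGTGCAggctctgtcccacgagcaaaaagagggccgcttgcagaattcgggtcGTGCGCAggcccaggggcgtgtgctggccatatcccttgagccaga
The Mt1 window held 3 metal response cores, starting at -23, 3 and 21 from the gene start, and the Mt2 window held 4, at -223, -128, -50 and 5, the last 2 on the opposite strand. The Mt2 window also held 1 antioxidant response core, at -79. Of 32851 promoter windows of the same length, 25.7% held at least 1 metal response core, 1.97% held at least 3 and 12.4% held at least 1 antioxidant response core. These matches describe letters and do not show that a factor was bound.

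Mt2 was strongly raised in most early HRas-v12 hearts and not in late ones. Its signal was 51771 and 9241 in the female early HRas-v12 arrays and 55171, 79146 and 46755 in the male ones, against a lowest of 6604, a median of 8817 and a highest of 14785 in the 6 shared controls. Of the 5 early arrays 4 lay above every control, and female early replicate 3, the array low in Esr1, lay among the controls. The log2 change was 1.90 ± 0.39 (SE), a 3.74-fold rise (adjusted p = 0.000666, limma). Without that array it was 2.52 (adjusted p = 1.91e-05), and without female early replicate 1 it was 1.28 (adjusted p = 0.0306).

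By the late time Mt2 was back among the control signals. It read 17271, 6147 and 13668 in female late HRas-v12 arrays and 9824, 12845 and 4231 in male ones, and only female late replicate 2 lay above every control. Late against early, Mt2 fell by 1.90 ± 0.39 on the log2 scale (SE, adjusted p = 0.00255), in a comparison that called 11.6% of all genes (6.91% up, 4.67% down) and the 2 members Mt1 and Mt2. That call was lost without female early replicate 1 (log2 change -1.28, adjusted p = 0.0721), and the change was -2.52 (adjusted p = 8.4e-05) without female early replicate 3. Without the 6 arrays that go against their labels it was -2.99, with 1 early female and 1 late male left. In that setting Hmox1 and Txnrd1 changed by -2.45 and -0.55, and Nqo1 and Sod2 by 0.50 and 0.56.

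Mt1 followed the same course at a smaller size. Its signal was 76580 and 48097 in female and 78248, 111750 and 65854 in male early HRas-v12 arrays, against a lowest of 33887, a median of 37105 and a highest of 62982 in the shared controls. Replicate 3 of the early females was the 1 early array inside the control range. The rise was 0.79 ± 0.22 on the log2 scale (SE, adjusted p = 0.00654), or 1.73-fold, and the call was lost without female early replicate 1 (log2 change 0.62, adjusted p = 0.0928). The probe set's name ends in _s_at, which marks probes that match more than 1 transcript, so signal from closely related transcripts cannot be told apart in it.

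In late HRas-v12 hearts Mt1 read 33298, 21238 and 32080.5 in females and 42249, 35288 and 24927 in males. Late against early, Mt1 fell by 1.21 ± 0.22 on the log2 scale (SE, adjusted p = 0.000859), with every late array below every early one, and it kept its call whichever 1 array was left out. Against the shared controls the late change was -0.42 (adjusted p = 0.178), not called.

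In MKK3bE hearts the metallothioneins were uneven between arrays and neither was called. Mt2 read 24601 and 5232 in the early females, which lay on either side of the control females at 8123 to 14785. In late females it read 25849.7 and 27049.5, both above every control, and in late males 9627, 13208 and 15237. The late change of 0.92 ± 0.39 (SE) had an adjusted p of 0.128 in the fit over all arrays. It passed with the 6 arrays left out (adjusted p = 0.0336) and when only the compared groups were fitted (adjusted p = 0.0022), at the same size of change. Mt1 changed by -0.61 early (adjusted p = 0.26) and by -0.06 late (adjusted p = 0.90).

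In early MKK7D hearts Mt1 read 30734, 23290 and 22857, against 53618, 49699 and 43920 in its own controls. Control early replicate 1, at 53618, is the array with the Y-linked signal. The change of -0.95 ± 0.29 (SE) was not called (adjusted p = 0.169), but was when only those 2 groups were fitted (adjusted p = 0.0112). Mt2 read 9525, 7361 and 6518 there, against 7518, 11182 and 9861 in the controls, and the groups overlapped. In late MKK7D hearts Mt1 read 24739, 19697 and 29675, against 19535, 25493 and 43002 in late controls, of which replicates 8 and 9 were the ones high in Esr1.

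Hmox1 degrades heme to biliverdin, iron and carbon monoxide. In early HRas-v12 hearts it read 4217 and 594.5 in females and 5775, 9614.5 and 4694 in males, against a lowest of 419, a median of 729 and a highest of 1156 in the shared controls. The 4 high arrays were the 4 that were high in Mt2. Hmox1 rose by 2.02 ± 0.40 on the log2 scale (SE, adjusted p = 0.0005), or 4.06-fold, the largest change of any member against control. Without female early replicate 3 the change was 2.71 (adjusted p = 7.18e-06), and without female early replicate 1 it was 1.33 (adjusted p = 0.0253).

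Late HRas-v12 hearts kept an intermediate Hmox1 signal, at 2016, 1729 and 1381 in females and 1710, 2202 and 500 in males. Of the 6 late arrays 5 lay above every control, and male late replicate 4 lay among them. The change of 0.89 ± 0.38 (SE) was not called (adjusted p = 0.118), and was without male late replicate 4 (log2 change 1.21, adjusted p = 0.0211). Late against early the change was -1.13 (adjusted p = 0.0626), and it was called without male late replicate 3 (log2 change -1.33, adjusted p = 0.0202). With quantile scaling it was -1.19 (adjusted p = 0.0449) and with a larger pseudocount -1.10 (adjusted p = 0.0469). The change was -1.82 without female early replicate 3 and -0.44 without female early replicate 1, each of which leaves 1 early female. It was -2.45 without the 6 arrays in doubt, with 1 early female and 1 late male left.

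MKK3bE hearts had Hmox1 at 2058 and 2605 in early females, against 727 to 1057 in control females. In late hearts it read 1220 and 1234 in females and 1755, 1264 and 1359 in males, all above the highest shared control. The MKK3bE changes were 1.45 ± 0.59 early and 0.77 ± 0.40 late (SE). They were not called, at adjusted p of 0.138 and 0.216, in the fit that pools the spread of all groups. When only the compared groups were fitted they were called, at adjusted p of 0.00966 and 0.0381. MKK7D hearts read 645 to 1083 early and 285 to 1202 late, against 538 to 749 and 316 to 714 in their own controls, and the groups overlapped at both times.

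**Figure D3:**
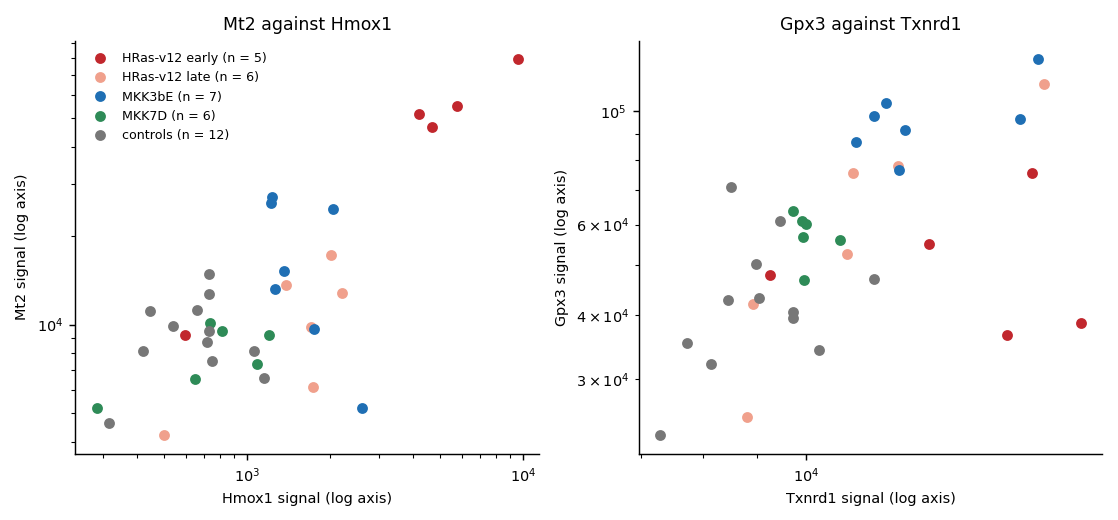
Signal of Mt2 against Hmox1 and of Gpx3 against Txnrd1 on the 36 arrays (log axes), 1 point per array, marked by line and time. Of the early HRas-v12 arrays 4 stand apart at high Mt2 and high Hmox1. The MKK3bE arrays stand together at high Gpx3 and raised Txnrd1, and some late HRas-v12 arrays lie near them.

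Nqo1 reduces quinones in a way that avoids oxygen radicals. It was lower in early HRas-v12 hearts, where Hmox1 was higher. Its signal in early HRas-v12 males was 2492, 3415 and 3343, all below the control males at 6752, 5494 and 5982. In early HRas-v12 females it was 4404 and 5759, overlapping the control females at 4668, 5622 and 4423. The mean change over the sexes was -0.47 ± 0.15 (SE, adjusted p = 0.016), lost without female early replicate 1 (log2 change -0.37, adjusted p = 0.146) and without male early replicate 1 (log2 change -0.39, adjusted p = 0.0532). In males alone it was -0.98 (adjusted p = 0.000389) and in females alone 0.046 (adjusted p = 0.956), so the sign turned.

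In MKK3bE hearts Nqo1 was higher. It read 6121 and 7965 in late females and 6522, 10575 and 7646 in late males, against a lowest of 4423, a median of 5558 and a highest of 6752 in the shared controls. Of the 5 late arrays 3 lay above every control. The rise of 0.46 ± 0.15 on the log2 scale (SE, adjusted p = 0.0428) was lost when any 1 of 8 of the 11 arrays was left out: control male replicates 2 and 5, control female replicates 2 and 4, MKK3bE male late replicates 3 and 4, or either MKK3bE late female. The adjusted p then reached 0.201. In early MKK3bE females Nqo1 read 7113 and 7679, both above every control female, with a change of 0.60 ± 0.22 (SE, adjusted p = 0.101).

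Late HRas-v12 against late MKK3bE hearts differed in Nqo1 and in Gclm, 2 members, where 3.95% of all genes were called, 1.92% higher and 2.04% lower. Nqo1 averaged 5208 ± 805 in late HRas-v12 arrays and 7766 ± 1746 in late MKK3bE arrays (SD, n = 6 and 5), a log2 difference of -0.54 ± 0.15 (SE, adjusted p = 0.0338). Leaving out any 1 of 5 of the 11 arrays ended that call: HRas-v12 female late replicates 3 or 4, HRas-v12 male late replicate 1, MKK3bE male late replicate 3 or MKK3bE female late replicate 3, with an adjusted p of up to 0.238. Nqo1 and Gclm also lost their calls without the 6 arrays in doubt, which leaves replicate 4 as the lone late HRas-v12 male. The log2 differences of Mt2 and Gpx3 were then -1.39 and -1.15. At the early time, in females, no member was called between the lines, where 1.81% of all genes were. Without those arrays 1 early HRas-v12 female remains, and the Mt2 difference was 2.19.

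Gclc and Gclm, the subunits that set the rate of glutathione synthesis, were not called against control in any line at any time. Gclc read 1841 to 3890 on the shared controls, and 2525 to 4048 in early HRas-v12, 2245 to 6008 in late HRas-v12 and 3187 to 5377 in MKK3bE arrays, which overlapped the controls. In early MKK3bE females Gclc read 5377 and 3982, both above the highest control female, with a change of 0.45 (adjusted p = 0.37). The signal of 6008 was HRas-v12 male late replicate 3, the highest Gclc of all 36 arrays. In early MKK7D hearts Gclc read 5185, 4229 and 3797, against 2909, 3758 and 3014 in its controls. The change of 0.44 ± 0.26 (SE) was not called (adjusted p = 0.576).

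Gclm read 2696, 1447 and 1848 in female and 1289, 2549 and 2059 in male late HRas-v12 arrays, against 3374 and 4018 in female and 4927, 2402 and 2295 in male late MKK3bE arrays. The difference was -0.79 ± 0.21 (SE, adjusted p = 0.0311), and the male arrays overlapped. The second Gclm probe set above the filter gave 0.26, the opposite sign, and their mean was -0.26 (adjusted p = 0.344). The call was also lost when any 1 of 6 of the 11 arrays was left out, namely HRas-v12 female late replicates 3 and 4, HRas-v12 male late replicate 1, MKK3bE male late replicate 2 or either MKK3bE late female, at an adjusted p of up to 0.181.

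Txnrd1 keeps thioredoxin reduced with NADPH, and it was the member called in the most comparisons with control. RefSeq gives it 3 start sites in the promoter table used, and the window shown is the one that held an antioxidant response core, at chr10:82858956-82859255 on the plus strand of GRCm38.p6, where the core (capitals) starts at -92 on the opposite strand.
Txnrd1 promoter: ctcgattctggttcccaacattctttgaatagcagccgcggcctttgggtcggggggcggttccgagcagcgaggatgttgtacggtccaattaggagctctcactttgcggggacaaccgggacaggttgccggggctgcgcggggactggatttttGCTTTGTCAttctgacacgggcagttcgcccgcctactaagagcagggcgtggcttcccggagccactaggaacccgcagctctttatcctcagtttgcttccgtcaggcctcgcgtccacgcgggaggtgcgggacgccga
The other Txnrd1 windows held neither core. Among the other members, the Gclm window held 3 metal response cores and 1 antioxidant response core, overlapping at -138 and -134, and 1 of the Mgst1 windows held an antioxidant response core at -56. The windows of Nqo1, Gpx3 and Sod2 held neither core, which says only that these letters are not in these 300 bases. The table had windows for 8 of the 10 members, 11 in all.

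In early HRas-v12 hearts Txnrd1 read 13032 and 9250.5 in females and 15426.5, 16270.5 and 18101 in males, against a lowest of 7293, a median of 8289 and a highest of 9717 in the shared controls. As for Mt2, female early replicate 3 was the 1 array within the control range. The rise was 0.69 ± 0.12 on the log2 scale (SE, adjusted p = 0.000198), or 1.61-fold. The other Txnrd1 probe sets rose with it, with changes of 1.01 and 1.42.

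In early MKK3bE females Txnrd1 read 16492 and 15849, against 8971, 7741 and 7293 in control females. In late MKK3bE hearts it read 12381 and 11884 in females and 11565, 12229 and 11130.3 in males, a narrow band above every shared control. The early MKK7D controls reached 11577, within that band. Txnrd1 rose by 1.02 ± 0.18 early (SE, adjusted p = 0.00185) and by 0.51 ± 0.12 late (SE, adjusted p = 0.00926), or 2.02-fold and 1.42-fold. Both calls held whichever 1 array was left out, and all further Txnrd1 probe sets were higher as well.

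In late HRas-v12 hearts Txnrd1 read 10915, 12180.4 and 11055 in females and 8909, 16701 and 8807 in males. The females and male replicate 3 lay above every shared control, and male replicates 1 and 4 lay among the shared controls. The rise of 0.42 ± 0.12 (SE, adjusted p = 0.0277) was lost without male late replicate 3 (log2 change 0.27, adjusted p = 0.102), female late replicate 3 (adjusted p = 0.0815), control male replicates 2 or 5 (0.0507 and 0.0557) or control female replicates 1 or 2 (0.0579 and 0.0555). MKK7D hearts read 9932 to 10003 early and 9712 to 10749 late, against 9040 to 11577 and 8508 to 10273 in their own controls, and the groups overlapped. The MKK7D changes were -0.01 with a 95% interval of -0.35 to 0.32 early and 0.11 with -0.23 to 0.44 late.

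Gpx3, the plasma glutathione peroxidase, was raised on every MKK3bE array. It read 125936 and 96510 in early females, against 50346.5, 35298 and 23324 in control females. In late hearts it read 91689.5 and 103666 in females and 97880, 76577 and 86841 in males, against a highest shared control of 50346.5. All 7 MKK3bE arrays lay above all 6 shared controls.

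The Gpx3 rise was 1.67 ± 0.39 on the log2 scale early (SE, adjusted p = 0.0115) and 1.35 ± 0.26 late (SE, adjusted p = 0.00195), or 3.18-fold and 2.54-fold. The late call held whichever 1 array was left out. The early one was lost without control female replicate 2 (log2 change 1.39, adjusted p = 0.0518), without MKK3bE female early replicate 1 (1.48, adjusted p = 0.128) and without replicate 2 (1.86, adjusted p = 0.0637).

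In HRas-v12 hearts Gpx3 was scattered and not called. Late arrays read 52603, 77959 and 75602 in females and 41905, 112685 and 25298 in males, so that the highest and lowest of the 6 were both males. The late change was 0.67 ± 0.25 (SE, adjusted p = 0.0765), and it was called without male late replicate 4 (log2 change 0.91, adjusted p = 0.00837). Early arrays read 55047 and 47812 in females and 36474, 75528 and 38577 in males, with a change of 0.45 (adjusted p = 0.196).

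Sod2 converts mitochondrial superoxide to hydrogen peroxide and was lower in HRas-v12 hearts. Early arrays read 51753 and 76160 in females and 33846, 48448 and 34704 in males, against a lowest of 79300, a median of 81595 and a highest of 86766 in the shared controls. All 5 lay below all 6 shared controls, with female early replicate 3 nearest to them, and every MKK7D control lay below them too. Sod2 fell by 0.75 ± 0.16 on the log2 scale (SE, adjusted p = 0.000873), and the other 3 Sod2 probe sets gave -0.67, -0.88 and -0.72. The call held whichever 1 array was left out.

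In late HRas-v12 hearts Sod2 read 60138, 45428 and 58392 in females and 75316, 33143 and 80125 in males, with male replicate 4 inside the control range. The fall of 0.55 ± 0.15 (SE, adjusted p = 0.0258) was lost without male late replicate 3 (log2 change -0.35, adjusted p = 0.0831), female late replicate 3 (adjusted p = 0.083) or control male replicate 1 (adjusted p = 0.0509). Of 10 heart muscle markers, 10 were called lower in early HRas-v12 hearts, also without the 6 arrays in doubt, and 8 in late ones. The late count was 0 without the 6 arrays in doubt, 0 without female late replicate 3 or male late replicate 3 alone, 2 without control male replicate 1 and 3 without control female replicate 4. In bulk tissue, fewer cells of a type and less RNA per cell cannot be told apart.

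MKK3bE arrays also lay below every shared control for Sod2. They read 52671 and 58383 in early females, 56927 and 58764 in late females, and 65252, 70842 and 64929 in late males. The MKK7D controls lay below every shared control as well, at 65231.5 to 76868 early and 44482 to 66513 late, and overlapped the MKK3bE arrays. The MKK3bE changes of -0.54 early and -0.41 late were not called, at adjusted p of 0.165 and 0.0963. They were without the 6 arrays that go against their labels, none of which is an MKK3bE or shared control array, at adjusted p of 0.00488 and 0.00139 and at the same size of change. Those arrays enter the MKK3bE fits only through the pooled spread. Late changes of the further Sod2 probe sets were -0.40, -1.40 and -1.43.

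Mgst1, whose product conjugates glutathione in mitochondrial and microsomal membranes, was the member called in MKK7D hearts. Early transgenic arrays read 4216, 3538 and 3455, against 12737, 8520.5 and 12872 in early controls, with no overlap. Mgst1 fell by 1.58 ± 0.29 on the log2 scale (SE, adjusted p = 0.0177), or 2.99-fold. The call was lost without MKK7D control early replicate 1, the array with the Y-linked signal (log2 change -1.48, adjusted p = 0.133), control replicate 3 (-1.48, adjusted p = 0.12), transgenic replicate 6 (-1.54, adjusted p = 0.0741) or transgenic replicate 7 (-1.53, adjusted p = 0.0792). A dim further probe set, below the filter, gave -0.43.

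At the late time Mgst1 read 10444, 4296 and 9150 in MKK7D transgenic arrays, against 9179, 8558 and 7859 in late controls, and the change was -0.19 (adjusted p = 0.999). The change late against early, set against the change in the controls, was 1.38 (adjusted p = 0.761), and no member was called there, where 0.0158% of all genes were. In HRas-v12 and MKK3bE hearts Mgst1 overlapped the controls, at 7906 to 26599 and 9709 to 17007, against 10222 to 20034. Its HRas-v12 and MKK3bE changes lay between -0.13 and 0.30, with no adjusted p under 0.289.

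Between the sexes no member was called in the shared controls, where limma called 0% of genes and 1148 had an unadjusted p under 0.05. Gclm came nearest, at 1587, 1953 and 2403 in control males and 3548, 4312 and 2896 in control females. The log2 difference was -0.85 ± 0.28 (SE, adjusted p = 0.316). No member's early HRas-v12 change differed between males and females at the threshold, where 1.1% of all genes did. The largest differences, male minus female change, were 2.19 for Hmox1 (adjusted p = 0.143), 1.95 for Mt2 (adjusted p = 0.175) and -1.03 for Nqo1 (adjusted p = 0.0738). Without HRas-v12 female early replicate 1 they were called, at 3.57, 3.19 and -1.22 with adjusted p of 0.00553, 0.0109 and 0.0229, and that leaves female early replicate 3 as the lone female. No member's late change differed between the sexes in HRas-v12 or MKK3bE hearts, where 0% and 0.00792% of all genes did. The Gpx3 difference in late HRas-v12 hearts was -1.54 without the 6 arrays in doubt, which leaves a lone late HRas-v12 male.

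Late against early MKK3bE females gave no called member, where 0.00792% of all genes were called. Txnrd1 stood at 12381 and 11884 late and 16492 and 15849 early, a log2 difference of -0.41 ± 0.20 (SE, adjusted p = 0.818). Mt2 differed by 1.22 (adjusted p = 0.862) and Hmox1 by -0.90 (adjusted p = 0.936). With 2 arrays at each time these differences were not detectable at this spread.

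Other genes of the pathways were read from 6 lists that together held 103 tested genes besides the members: metal handling, NRF2 regulators and other targets, glutathione synthesis and use, superoxide and peroxide removal, iron storage and heme release, and sources of oxidants. In early HRas-v12 hearts 51 of the 103 were called, 22 higher and 29 lower, or 49.5% beside 33.8% of all genes (15.1% higher and 18.7% lower). Without HRas-v12 female early replicate 1 it was 24 of 103, and without the 6 arrays in doubt it was 57. Metal handling genes were mostly higher, 10 up and 1 down of 18 with a median log2 change of 0.31, beside -0.04 for all genes, and without female early replicate 1 there were 6 up.

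The zinc importers of the Slc39 family led the metal handling list in early HRas-v12 hearts. Slc39a6 averaged 6493 ± 3715 in HRas-v12 arrays and 1877 ± 374 in controls (SD, n = 5 and 6), a log2 change of 1.31 (adjusted p = 0.00135). Slc39a13 rose by 0.95 (adjusted p = 0.000837) and Slc39a1 by 0.50 (adjusted p = 0.00143). Zinc is the usual signal to MTF1, and these transporters bring it into the cytosol. The part of zinc or of these transporters in the metallothionein changes was not tested.

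NRF2 regulators and other targets split, 3 up and 8 down of 22 in early HRas-v12 hearts, with a median of -0.07. Txn1, the thioredoxin that Txnrd1 reduces, rose by 0.86 (adjusted p = 6.96e-05), averaging 34502 ± 8808 in HRas-v12 arrays and 17902 ± 2634 in controls. The NRF2-related factor Nfe2l1 fell by 0.67 (adjusted p = 7.24e-05) and the transferase Gsta4 fell by 1.10 (adjusted p = 0.000175). Without female early replicate 1 the counts were 1 up and 3 down.

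Glutathione genes were 5 up and 8 down of 22, with a median of -0.27, and genes that remove superoxide and peroxide were 4 up and 10 down of 25, with a median of -0.28. Oplah, which recycles 5-oxoproline to glutamate, fell by 1.29 (adjusted p = 4.48e-05) and the transferase Gstt1 by 1.22 (adjusted p = 2.34e-05). Catalase, Cat, averaged 17972 ± 9200 in HRas-v12 arrays and 31118 ± 3390 in controls, a fall of 0.82 (adjusted p = 0.000112). Txnrd3, a thioredoxin reductase best known from testis, fell by 0.65 (adjusted p = 0.00011) while Txnrd1 rose. Without female early replicate 1 the down counts were 5 and 3.

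Of iron and heme genes 3 of 12 were lower and none higher in early HRas-v12 hearts, where 18.7% of all genes were lower and 15.1% higher. The 3 lower genes were the ferritin heavy chain Fth1, down by 0.35 (adjusted p = 0.00481), the iron exporter Slc40a1, down by 0.89 (adjusted p = 0.00968), and the heme carrier Slc48a1, down by 0.56 (adjusted p = 0.0204). Of the 12 genes 2 were called higher without male early replicate 2, and 1 without control male replicate 1 or control female replicate 2. The 3 calls of lower genes were lost without female early replicate 1, at adjusted p of 0.0912, 0.129 and 0.0766. Slc48a1 was also lost without control male replicate 1 or 2 (0.0579 and 0.0654) and without HRas-v12 male early replicate 1 (0.0545).

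Of the sources of oxidants, 3 were higher and 2 lower of 11. Ncf1, a subunit of the phagocyte NADPH oxidase, rose by 1.28 (adjusted p = 0.000285) and its activating GTPase Rac2 by 1.16 (adjusted p = 0.00175). Maob, a monoamine oxidase of the mitochondrial outer membrane, fell by 1.29 (adjusted p = 0.000398). Of 18 macrophage markers 11 were higher in the same comparison, and their summed signal was 68373 to 277976 in early HRas-v12 arrays and 73477 to 114029 in controls.

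The macrophage sum was lowest in female early replicate 3, the array that also had control-like Mt2, Hmox1 and Txnrd1. It was 175627 in female early replicate 1 and 226589 to 277976 in the 3 males. All 10 heart muscle markers were lower, with sums of 991919 to 1444990 in early HRas-v12 arrays and 1527740 to 2055870 in controls, and 8 of 10 endothelial markers were lower. Of 12 fibroblast markers 6 were higher and 2 lower, and none of 4 neutrophil markers was called, against 1 without control female replicate 2. The part of these cell types in the members' changes was not tested. Without female early replicate 1 the higher macrophage markers numbered 1, the higher fibroblast markers 0 and the lower endothelial markers 4. They were 16, 8 and 9 without the 6 arrays in doubt.

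Late HRas-v12 hearts had 16 of the 103 list genes called, 8 higher and 8 lower, or 15.5% beside 9.52% of all genes. None was called without the 6 arrays in doubt or without male late replicate 3 alone, and 1 without female late replicate 3, whereas 32 were called without male late replicate 4. It was 4 to 8 without control male replicates 1, 2 or 5, control female replicates 1 or 4, or HRas-v12 female late replicate 4. Gss, the last enzyme of glutathione synthesis, had the smallest adjusted p, at a log2 change of 0.64 (adjusted p = 0.015, and 0.0557 without male late replicate 3). The summed macrophage markers ran from 60737 in male late replicate 4 to 372098 in male late replicate 3, the same arrays that lay at the extremes for Txnrd1, Gpx3 and Sod2, against 73477 to 114029 in controls.

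Each of the other genes named from the lists in late HRas-v12 hearts also lost its call without male late replicate 3. Higher were Aldh3a2, a fatty aldehyde dehydrogenase, by 0.35 (adjusted p = 0.0224), Srxn1, which repairs over-oxidized peroxiredoxins, by 0.60 (0.0369), Rac2 by 0.98 (0.0216) and Ncf1 by 0.82 (0.0266), the last a pair of phagocyte oxidase genes. Lower were Cox17, a copper carrier to cytochrome oxidase, at -0.40 (adjusted p = 0.0201), the transferase Gsta4 at -0.60 (0.0385), Ggct, a glutathione-cycle enzyme, at -0.56 (0.026), Txnrd3 at -0.34 (0.0372), the mitochondrial thioredoxin Txn2 at -0.51 (0.0402) and ferritin heavy chain Fth1 at -0.33 (0.0256).

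MKK3bE hearts had 10 of the 103 called early, 6 higher and 4 lower, or 9.71% beside 6.26% of all genes, and 20 late, 11 higher and 9 lower, or 19.4% beside 10.4%. The early count was 5 without control female replicate 4, and 2 and 3 without female early replicates 1 and 2. The late count was 12 and 13 without female late replicates 2 and 3. Without the 6 arrays in doubt 31 and 38 were called, through the pooled spread alone.

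Of the monoamine oxidases in MKK3bE hearts, Maoa rose and Maob fell. Maoa, which makes hydrogen peroxide as it degrades catecholamines and serotonin, averaged 22077 ± 15740 in early MKK3bE arrays and 2131 ± 289 in control females (SD, n = 2 and 3). It rose by 3.15 on the log2 scale (adjusted p = 1e-06), 8.89-fold, with changes of 2.35 and 3.95 without early replicates 1 and 2. In late hearts Maoa averaged 12381 ± 4181, against 2149 ± 273 in the shared controls (SD, n = 5 and 6), a rise of 2.53 (adjusted p = 1.22e-08). Its relative Maob fell by 1.61 early (adjusted p = 0.0104, and 0.0832 and 0.0828 without female early replicates 1 and 2) and by 0.99 late (adjusted p = 0.0117, and 0.0586 without female late replicate 3).

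The other early MKK3bE calls were each lost when some 1 array was left out, and leaving out an early MKK3bE female leaves 1 array in that group. Slc39a6 rose by 1.73 (adjusted p = 0.017), Srxn1 by 1.13 (0.0173) and Abcc1, an exporter of glutathione conjugates, by 0.99 (0.0147), and Gstt1 fell by 1.02 (0.0163). These 4 lost their calls without either early MKK3bE female. Srxn1 and Gstt1 also lost theirs without control female replicate 4, and Abcc1 without control female replicate 2. Without MKK3bE female early replicates 1 and 2, Slc39a6 changed by 1.70 and 1.77 and Srxn1 by 1.24 and 1.02. Abcc1 then changed by 0.94 and 1.03, and Gstt1 by -1.17 and -0.87. Hagh, a glyoxalase that releases glutathione, rose by 0.92 (adjusted p = 0.00364, and 0.0792 without female early replicate 2). Chac1, which breaks glutathione down, rose by 1.19 (adjusted p = 0.0187, and 0.346 without female early replicate 1, 0.0878 without control female replicate 4 and 0.0567 without control female replicate 2).

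Nox4, an NADPH oxidase that releases hydrogen peroxide, averaged 2299 ± 1426 in late MKK3bE arrays and 520 ± 132 in controls, a rise of 2.05 (adjusted p = 0.0012). Srxn1, an NRF2 target, rose by 0.88 (adjusted p = 0.00472), and Abcc1 rose by 0.83 (adjusted p = 0.00191). Sqstm1, whose product binds KEAP1, rose by 0.50 (adjusted p = 0.0012). Cp, the copper-carrying ferroxidase ceruloplasmin, rose by 1.28 (adjusted p = 0.00575), and Sod3, the extracellular superoxide dismutase, rose by 0.92 (adjusted p = 0.0104, and 0.0689 without MKK3bE female late replicate 2).

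Among the other late MKK3bE calls, Slc39a7, a zinc transporter of the endoplasmic reticulum, rose by 0.38 (adjusted p = 0.00899) and Hagh by 0.51 (0.00782). Ggct fell by 0.70 (0.00663), the transferase Gstp1 by 0.37 (0.0101) and Aco1, the cytosolic aconitase that doubles as an iron regulatory protein, by 0.47 (0.00438). These 5 kept their calls whichever 1 array was left out. Glrx5, a mitochondrial glutaredoxin of iron-sulfur cluster assembly, fell by 0.60 (adjusted p = 0.0385). That call was lost without any 1 of control male replicates 1, 2 and 5, control female replicates 1 and 2, MKK3bE male late replicates 2 and 4 and both late females, at an adjusted p of up to 0.113.

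Some fibroblast markers were higher in MKK3bE hearts, where Gpx3 was higher. Of 12 such markers 5 were higher early and 6 late, with summed signals of 657355 to 775031 early and 495213 to 664328 late, against 369685 to 465646 in the shared controls. The early count was 0 without either early MKK3bE female and 1 without control female replicate 1, and the late count was 2 without female late replicate 2. None of 18 macrophage markers was called at either time in limma with all arrays, at sums of 76055 to 147800 early and 106665 to 159709 late, and no neutrophil or heart muscle marker was, except 1 neutrophil marker late without control female replicate 2. Leaving out the 6 arrays in doubt, 7 fibroblast markers were higher early and 10 late. In that setting 1 macrophage marker was lower early and 8 were higher late, and 4 of 10 heart muscle markers were lower early and 3 late. In HRas-v12 hearts, where Gpx3 was not called, 6 of the 12 fibroblast markers were higher and 2 lower early, and 4 were higher late. The early 6 were 0 without HRas-v12 female early replicate 1. The late 4 were 0 without control female replicate 1 and 1 without the 6 arrays in doubt. Fibroblast sums in late MKK7D controls ran from 370478 to 688351. The part of fibroblasts in the rise of Gpx3 was not tested.

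In MKK7D hearts none of the 103 list genes was called at either time, and no marker of heart muscle, macrophages, fibroblasts, neutrophils or endothelium was. The count was 1 without MKK7D control early replicate 2 and 0 when any other array was left out. Without the 6 arrays in doubt it was 1 early. At the late time that setting leaves a lone MKK7D control, so no count of genes or markers is given.

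**Figure D4:**
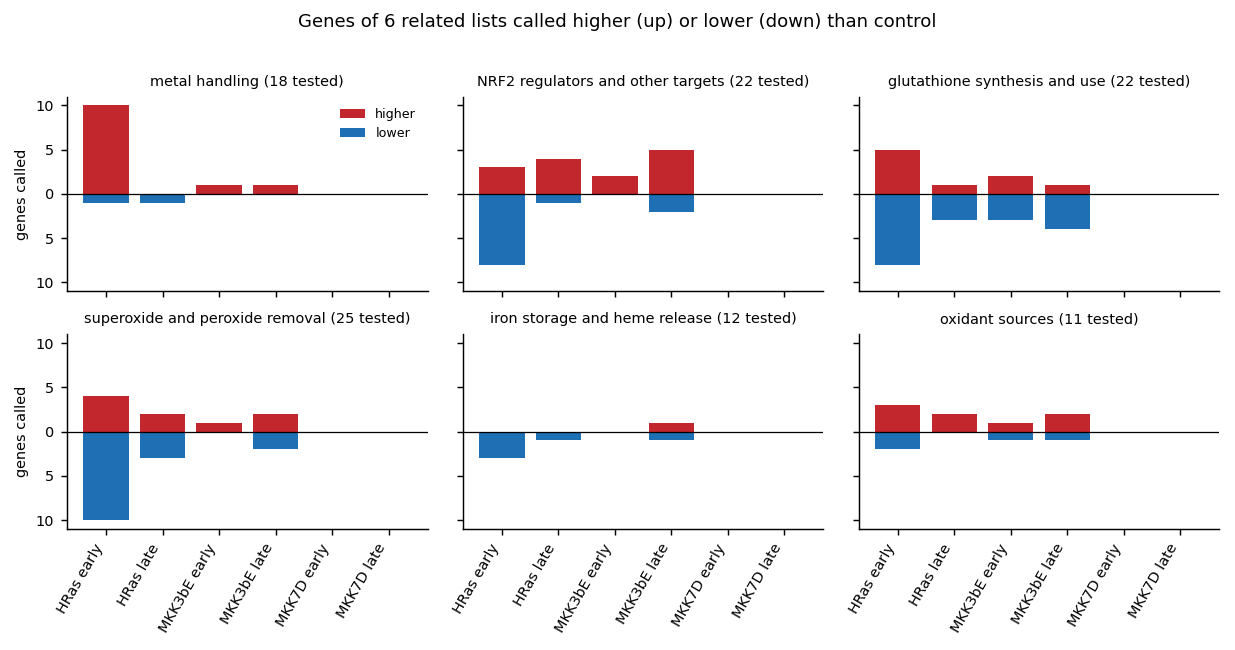
Number of genes called higher (upward bars) and lower (downward bars) in limma in each of 6 pathway lists, for 6 comparisons against control. Metal handling is mostly upward in early HRas-v12 hearts, superoxide and peroxide removal mostly downward, and MKK7D has no bars.

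Among themselves the members formed loose pairs. Over the 36 arrays, which share groups and 1 scaling step, Pearson's r of log2 values was 0.82 for Mt1 and Mt2, 0.75 for Mt2 and Hmox1 and 0.77 for Hmox1 and Txnrd1, given as a description. Nqo1 ran at -0.32 with Hmox1 and at -0.09 with Txnrd1, although all 3 are NRF2 targets. Gclc and Gclm had an r of 0.56.

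The genes most like each member over the 13 group means were named by Pearson's r alone, and say nothing of shared control. For Mt1 they were Rfxank (0.92), Lcn2 (0.91) and Cd163 (0.91), and for Mt2 they were Lin37 (0.95), Ms4a6d (0.94) and Ccl6 (0.94). For Hmox1 they were Cstb, Ssu72 and Nme1 (0.96, 0.96 and 0.95), and for Txnrd1 Derl2, Usp4 and Fam214b (0.95, 0.93 and 0.93). For Gpx3 they were the matrix genes Cilp (0.93) and Mgp (0.92) and Shisa3 (0.92), and for Sod2 the mitochondrial metabolism genes Suclg1, Acadvl and Sucla2 (0.98 each). Nqo1 was nearest to Ppp1r3c, Prkcq and Slc24a2 (0.94, 0.94 and 0.92), Gclc to Ppp1r15a, Igf1r and Brd2 (0.94, 0.90 and 0.89), Gclm to Mars1, Srrm2 and Emsy (0.86, 0.85 and 0.84), and Mgst1 to Mal, Tmc4 and 4833447I15Rik (0.92, 0.90 and 0.90).

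The MKK7D controls were also set against the shared control females, since both are labelled as littermates without transgenes. Of the MKK7D controls, early replicate 1 and late replicates 8 and 9 go against their labels. At the early time no member was called, where 1.47% of all genes were. At the late time no member was called either, where 10.7% of all genes were. There Mt1 differed by -0.78 (adjusted p = 0.076) and Sod2 by -0.61 (adjusted p = 0.058), and without late replicate 10 these were -1.09 (adjusted p = 0.0139) and -0.78 (adjusted p = 0.0204). That leaves replicates 8 and 9, both high in Esr1, as the late MKK7D controls. With the 6 arrays in doubt left out, replicate 10 alone remains, and the differences were -0.15 (adjusted p = 0.89) and -0.28 (adjusted p = 0.445), on the assumption that it varies like the other groups.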

How the data were processed

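Left ventricle RNA was read on 36 arrays in 13 groups, which were taken from the array titles. The authors deposited a linear intensity for each probe set, which per the submitters' processing notes came from MAS5, with no version stated there. The arrays came already scaled to a common trimmed mean. Of 45101 probe sets, 64 control probe sets were left out, and 34958 carried 1 gene symbol in the platform annotation. Values were taken as log2(signal + 32), probe sets with a mean of at least 8.80 were kept (27022), and the brightest of each gene gave 12626 genes. One limma model (limma 3.58.1, R 4.3.3) held a mean for each of the 13 groups, with an intensity trend and with 23 residual and 4.61 prior degrees of freedom. It gave 17 comparisons, and p-values were adjusted by Benjamini-Hochberg over all genes tested. Every adjusted p is from limma. Its use here was tried on simulated data for some of the comparisons. Those data had the same spread in every group, so they do not show how limma does where groups differ in spread.

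The members, the lists and the tests were chosen with earlier results of these data known. All 10 members are named, and from each pathway list up to 3 called genes in each comparison with control, those with the smallest adjusted p. Alternatives were other pseudocounts and filters, quantile scaling, the mean of a gene's probe sets, no trend, fewer groups in the model, a replicate block, 1 sex, and arrays left out. Promoters are from the RefSeq table on GRCm38.p6. The genes of the HRas-v12 and MKK7D transgenes are not reported here.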

Additional observations from a re-analysis of the deposited data

Results flagged for a closer look

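Tests of a difference between times or between lines singled out 4 values. Late against early HRas-v12 hearts differed in Mt1, by -1.21 on the log2 scale, and in Mt2, by -1.90. Both metallothioneins were high on 4 of the 5 early arrays, and all 6 late arrays lay below those 4. The summed macrophage markers were 60737 to 372098 in late and 68373 to 277976 in early HRas-v12 arrays, and their part was not tested.

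Late HRas-v12 against late MKK3bE hearts differed in Nqo1, by -0.54, and in Gclm, by -0.79. That Gclm value is of the brightest probe set, and the other Gclm probe set above the filter gave 0.26. Both calls were lost when single arrays were left out. Without the 6 arrays in doubt neither was called, and Mt2 differed by -1.39 and Gpx3 by -1.15. That setting leaves a lone late HRas-v12 male.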

How the results depend on the processing

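Over 17 comparisons, the number of members called moved by at most 1 with another pseudocount, another filter or no intensity trend. In late HRas-v12 hearts against control, with 2 called, it was 1 with quantile scaling or the mean of a gene's probe sets, and 0 without the 6 arrays in doubt, with only the compared groups fitted, with the replicate block, in females only and in males only. In early MKK3bE hearts, with 2 called, it was 5 without those arrays, 4 with only the compared groups and 1 with the block. In late MKK3bE hearts, with 3 called, it was 5 without those arrays, 6 with only the compared groups, 1 with the block and 0 in either sex alone. Early HRas-v12 hearts, with 6 called, gave 0 in females only, where the Nqo1 change turned to 0.046. Early MKK7D hearts, with 1 called, gave 2 with only the compared groups. Late against early HRas-v12, with 2 called, gave 6 without the 6 arrays, 1 with only the compared groups and 0 with the block. HRas-v12 against MKK3bE, with 0 called early and 2 late, gave 1 early without the 6 arrays, and late 2 other members without them, 1 with the mean of probe sets, 0 with only the compared groups and 0 with the block. The late HRas-v12 sex difference had 0 called. Without the 6 arrays 1 array remains in each of early HRas-v12 females, late HRas-v12 males and late MKK7D controls. Counts that use these groups then rest on the spread of the others.

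With arrays left out one at a time, members called ran over 4 to 6 in early and 0 to 4 in late HRas-v12, 1 to 2 in early and 2 to 3 in late MKK3bE, and 0 to 1 in early MKK7D hearts. They ran over 1 to 5 for late against early HRas-v12, 0 to 3 for HRas-v12 against MKK3bE late, 0 to 3 for the early HRas-v12 sex difference and 0 to 2 for the late MKK7D controls against the shared ones. Of 18 called pairs of member and comparison, 8 kept their call whichever array was left out, and 2 kept it under all other alternatives. Of 152 pairs not called, 15 gained a call under an alternative other than leaving out 1 array.

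Counts over all genes moved further. Without the 6 arrays they were 157 in late HRas-v12 (1202 with all arrays), 2074 in early and 2581 in late MKK3bE (790 and 1319), 123 in early and 428 in late MKK7D (17 and 0), 3291 for late against early HRas-v12 (1463), and 554 and 814 for HRas-v12 against MKK3bE early and late (228 and 499). With only the compared groups they were 0, 1288 and 2262 for late HRas-v12 and early and late MKK3bE, 372 for early MKK7D, 49 for late against early HRas-v12, and 1 and 181 between the lines. With the replicate block they were 1637 in early HRas-v12 (4267), 0 in late HRas-v12, 155 and 216 in MKK3bE, 46 for late against early HRas-v12, and 69 and 134 between the lines. Early MKK7D gave 27 with the stricter filter and 53 with the mean of probe sets. One sex alone gave 0 in early HRas-v12 females and late HRas-v12 males, and 164 and 245 in late MKK3bE females and males. Leaving out 1 array gave 1571 to 4864 in early and 132 to 2507 in late HRas-v12, 132 to 577 in early and 541 to 1179 in late MKK3bE, and 3 to 102 in early MKK7D. Late against early HRas-v12 gave 338 to 2716, and the lines gave 46 to 264 early and 175 to 854 late.

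In the remaining comparisons the count for control males against females, 0 with all arrays, was 2 to 8 under other pseudocounts, filters, quantile scaling or the mean of probe sets, 29 without the 6 arrays, 10 with only the compared groups and up to 61 with 1 array left out. The early HRas-v12 sex difference (139) gave 81 without the 6 arrays, 29 with only the compared groups, 0 with the block and 4 to 1393 with 1 array left out, and the late one (0) gave 476 without the 6 arrays. The late MKK7D controls against the shared females (1356) gave 110 without the 6 arrays, 1 with only the compared groups and 396 to 2243 with 1 array left out. The early ones (185) gave 111 with quantile scaling, 21 with only the compared groups and 33 to 203 with 1 array left out. Late against early MKK3bE (1) gave 8 with the larger pseudocount, 16 without the 6 arrays, 25 with only the compared groups and 0 with the block.

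Replicate numbers did not pair the samples, since 4 of 23 same-numbered pairs had a correlation of deviations over 0.1. The replicate block was fitted for the HRas-v12 and MKK3bE comparisons, and the MKK7D comparisons could not be blocked, since their groups share no numbers. Quantile scaling moved the median of all genes by less than 0.1. The cause of the moved counts was not tested. Groups held 2 or 3 arrays, which limits what can be called.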

Other observations

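Late MKK7D control arrays differed among themselves along with Esr1. Replicates 8 and 9, with Esr1 at 106402 and 91291, had Mt1 at 19535 and 25493, Sod2 at 49647 and 44482 and Gpx3 at 60872 and 71024. Replicate 10, with Esr1 at 953, had Mt1 at 43002, Sod2 at 66513 and Gpx3 at 34221. The late MKK7D transgenic arrays lay at 19697 to 29675 for Mt1, 48864.5 to 53779 for Sod2 and 55964.5 to 63705 for Gpx3.

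HRas-v12 male late replicate 3, low in Esr1 at 1327, had a Txnrd1 signal of 16701, a Gpx3 signal of 112685 and the lowest Sod2 signal of all arrays, 33143. Male late replicate 4, with Esr1 at 155949, had Txnrd1 at 8807, Gpx3 at 25298 and Sod2 at 80125, near the shared controls.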
